A study of Mus musculus with 6 samples.

Results

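The cytosolic ribosomal proteins were followed as a set of 91 genes among the 54446 genes quantified in splenic CD8+ T cells. Members were chosen by name: genes whose symbol starts with *Rpl* or *Rps* and a digit, together with *Rpsa* and the stalk genes *Rplp0*, *Rplp1* and *Rplp2*. Names holding -ps, the kinases *Rps6k* and *Rps19bp1* were left out. The set holds 54 genes of the large subunit and 37 of the small subunit. GENCODE lists 84 of them as protein-coding and 7 as pseudogenes, namely *Rpl32l*, *Rpl37rt*, *Rpl6l*, *Rps12l1*, *Rps3a2*, *Rps3a3* and *Rps4l*.

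RNA-Seq was carried out on cells from the spleens of C57BL/6 mice aged 8 weeks, isolated by negative selection. Unstimulated cells were taken fresh. Control cells were kept for 72 h with antibodies to CD3 and CD28 away from magnets, and SMF-treated cells had the same antibodies for the same time on permanent magnets giving a static magnetic field (SMF) of 0.3 T. Each group has 2 libraries, and the labels do not say whether these came from separate mice or cultures, so the p values measure only the spread between these libraries, which may be technical.

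A ribosome is built from a small subunit, which reads the mRNA, and a large subunit, which joins amino acids, and each ribosomal protein is needed in about the same number of molecules. Most of their mRNAs start with a C followed by a run of pyrimidines, the 5′ terminal oligopyrimidine (TOP) motif, through which the mTOR pathway controls their translation. Resting T cells hold few ribosomes and make many more of them once they are activated to grow and divide.

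Depth, taken as bases covered by reads, ran from 64.4 to 259 Mb per library and was highest in the SMF libraries. Folders named in the file headers are dated. Both first replicates of the unstimulated and control groups carry June 2017, both second replicates November 2017, and both SMF libraries October 2018. SMF treatment and folder date therefore cannot be told apart, whereas control and unstimulated cells can be compared within each date. The share of protein-coding genes in all FPKM was 68.7% and 69.2% for the SMF libraries and between 49.1% and 50.5% for the other 4. All 6 markers of CD8+ T cells were found in every library. Their summed level was 658 and 784 FPKM in unstimulated, 349 and 566 in control and 950 and 854 in SMF-treated cells, and *Cd8a* itself was lower in control than in SMF-treated cells, a call by the rule given below. The 4 B cell markers summed to 142 and 103 FPKM in unstimulated cells, 23.3 and 7.63 in control cells and 4.50 and 2.43 in SMF-treated cells. *Cd4* was at most 4.68 FPKM, and the 3 myeloid markers analysed summed to between 47.0 and 83.4 FPKM, most of it *Csf1r*. Fewer cells of a type and less RNA per cell cannot be told apart in such bulk samples, and the part of these shifts in the results below was not tested.

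The start sites show how widely the TOP letters occur among the members. RefSeq start windows on GRCm38.p6 were matched for 66 of the 91 members. A C followed by at least 4 letters C or T on the transcribed strand is called a run here. It may sit inside a longer pyrimidine stretch that begins earlier, and the C nearest the start was taken. That C lay within 10 bases of the annotated start in 40 of the 66 members, 60.6%. The share was 33.3% of all genes in that table and 43.5% of 69 mitochondrial ribosomal protein genes. At the start itself, within 1 base either side, such a C was present in 31.8% of the members, 7.51% of all genes and 7.25% of the mitochondrial set. The windows below run from 20 bases before the annotated start to 10 bases after it, with the run in capitals. They were chosen to set members with the run at the start beside those with a later run or none, and they include genes whose levels are described further on. A run at the end of a window may extend past it.
*Rps6*, chr4:86857358-86857387, minus strand: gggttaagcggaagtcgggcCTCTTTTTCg
*Rps18*, chr17:33955656-33955685, minus strand: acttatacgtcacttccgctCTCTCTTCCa
*Rps10*, chr17:27635235-27635264, minus strand: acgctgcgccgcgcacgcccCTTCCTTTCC
*Rps27*, chr3:90213639-90213668, minus strand: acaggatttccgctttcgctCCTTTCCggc
*Rps27l*, chr9:66946066-66946095, plus strand: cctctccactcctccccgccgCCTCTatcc
*Rpl22l1*, chr3:28805488-28805517, plus strand: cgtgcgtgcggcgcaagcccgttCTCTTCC
*Rps2*, chr17:24720043-24720072, plus strand: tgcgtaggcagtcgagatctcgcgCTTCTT
*Rpl9*, chr5:65391422-65391451, minus strand: gcgacacgcagggccctgacggattacaag
*Rpl24*, chr16:55966255-55966284, plus strand: taggaagaaagctgttgctaggaaacagac
*Rpl7l1*, chr17:46782647-46782676, minus strand: gcccggtgaggctgcgcaagcgcagtagct
*Rps6*, *Rps18*, *Rps10* and *Rps27* carry the run in capitals from the first base of the transcript, *Rps27l* from the second base of the earlier of its 2 listed starts, and *Rpl22l1* and *Rps2* a few bases later. In *Rps6*, *Rps18*, *Rps10* and *Rps27* the letters just before the capitals are C or T too. Their whole pyrimidine stretch thus begins upstream of the annotated start. *Rpl9*, *Rpl24* and *Rpl7l1* hold no such run in this window, which says only that the letters are not at these annotated starts. *Rps20*, which stands apart below, was not matched in the table.

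The members were among the most abundant mRNAs of these cells. FPKM, the fragments per kilobase of transcript scaled to library size, was summed over the transcripts of each gene. Of the 91 members, 88 averaged at least 1 FPKM and were tested, 52 of the large and 36 of the small subunit. Among these 88, 75 had a mean of at least 100 FPKM and the median member had a mean of 247 FPKM. *Rpl3l* and *Rpl39l*, variant copies known from muscle and testis, were listed at 0 in all 6 libraries. *Rps4l* reached at most 1.16 FPKM and was not tested.

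*Rpl13a*, a large subunit protein that hosts several snoRNAs in its introns, had the highest mean of 1511 FPKM, and its values were 1461 and 1349 in unstimulated, 1983 and 1088 in control and 1628 and 1557 in SMF-treated cells. *Rps18*, a protein of the head of the small subunit, came next with a mean of 1103 FPKM. The ranges of both genes overlap over the 6 libraries, so their order is not fixed by the data. *Rps14* and *Rps3a1* had means of 845 and 742 FPKM. At the low end were pseudogenes, from *Rpl32l* at a mean of 1.22 FPKM to *Rpl6l*, *Rps12l1*, *Rps3a2* and *Rps3a3*, which between them reached at most 24.2 FPKM in any library.

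The members took a larger share of the summed FPKM in SMF-treated cells than in the other 4 libraries. The share was 3.75% and 4.99% in unstimulated cells, 3.87% and 4.59% in control cells and 7.97% and 8.10% in SMF-treated cells. Over protein-coding genes alone the shares were closer, at 7.57% and 10%, 7.85% and 9.05%, and 11.5% and 11.8%. In both scales the SMF libraries lay above the other 4 with no overlap, and unstimulated and control cells overlapped. With 2 libraries against 2, the smallest two-sided p that an exact permutation test can give is 0.333, so the shares were not tested. The median member had 129 and 201 FPKM in unstimulated, 182 and 247 in control and 356 and 384 in SMF-treated cells.

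**Figure D1:**
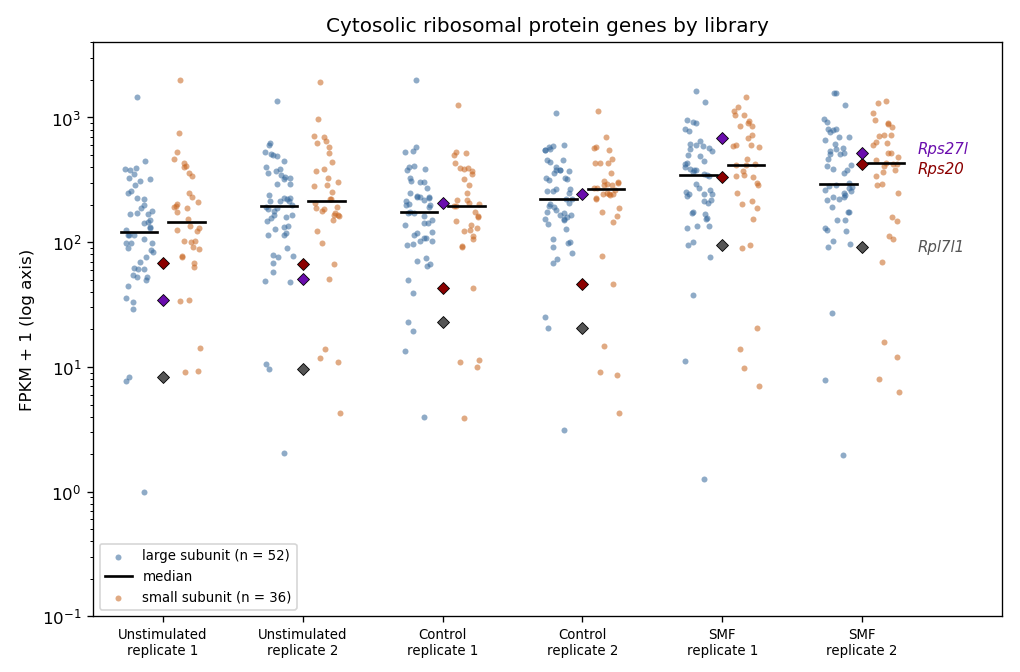
FPKM of each tested member in the 6 libraries, on a log axis after adding 1, for large and small subunit genes, with 1 point per gene and a line at the median. Diamonds mark *Rps20*, *Rps27l* and *Rpl7l1*. The medians of the SMF libraries, 356 and 384 FPKM over both subunits, lie above those of the other 4, between 129 and 247.

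The balance of the subunits differed between fresh and stimulated cells. The summed FPKM of the large subunit was 1.04 and 1.10 times that of the small subunit in unstimulated cells, 1.35 and 1.34 times in control cells and 1.15 and 1.29 times in SMF-treated cells. In 2 of the stimulated libraries, control 1 and SMF 1, the member with the highest value was *Rpl13a*. It was *Rps18* in control 2 and *Rpl41*, the shortest ribosomal protein, in SMF 2.

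The members differed between libraries of the same group by folder date. In log2(FPKM + 1), the median member was 0.61 higher in unstimulated 2 than in unstimulated 1, with 74 of 88 members higher, while the median of all 14991 genes tested differed by 0.00. Control 2 exceeded control 1 by a median of 0.40, with 66 of 88 members higher, against 0.02 over all genes. The SMF libraries, of the same date, differed by a median of 0.00 with 44 members on each side. In both groups 61 members were higher in the second replicate, and 7 were at least 2-fold higher in both, namely *Rpl27a*, *Rpl29*, *Rpl32*, *Rpl37*, *Rpl37rt*, *Rplp0* and *Rpsa*. *Rpl32*, for example, had 125 and 400 FPKM in the unstimulated and 196 and 547 FPKM in the control libraries. Over the 88 members the replicate differences of the 2 groups had a correlation of 0.64, as a description over genes that share libraries and depth, against 0.096 over all genes. Depth moved the same way, with 67.4 and 64.4 Mb in the first and 132 and 172 Mb in the second replicates, and its part in the difference was not tested.

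**Figure D2:**
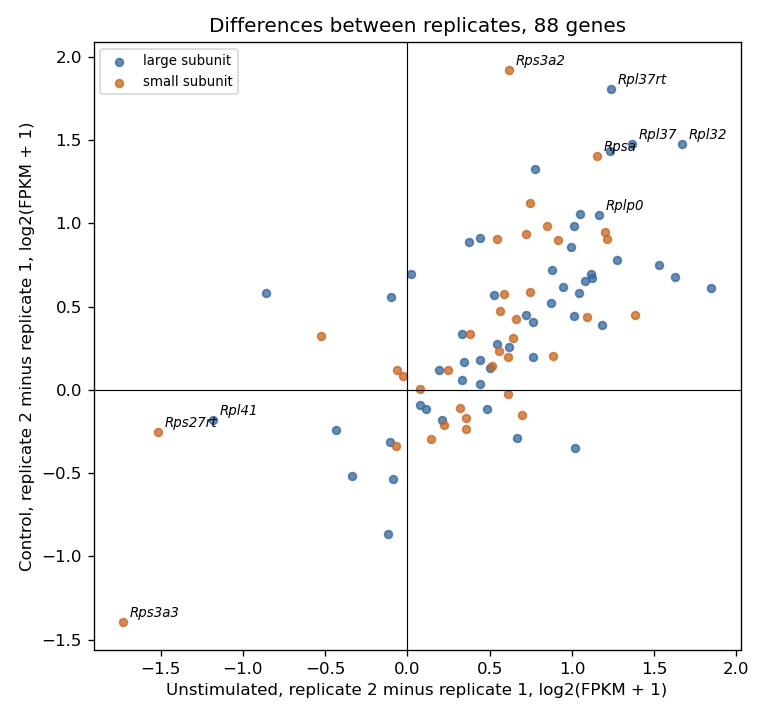
Difference between replicate 2 and replicate 1 of each tested member in log2(FPKM + 1), unstimulated on the x axis and control on the y axis. Most points, 61 of 88, lie in the upper right, where the second replicate is higher in both groups.

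The comparison of SMF-treated with control cells asks what the field added to stimulation. A gene was called when it differed at least 2-fold and limma's unadjusted p on log2(FPKM + 1), the scale of all fold changes below, did not exceed 0.05. Of the 88 members, 25 were called higher in SMF-treated cells, 28.4%, and 0 lower, whereas 12.5% of all genes tested were called higher and 5.72% lower. Of 10216 other protein-coding genes, 15.8% were called higher and 2.59% lower. The 1004 of those with a mean of at least 50 FPKM had 19.4% called higher and 7.97% lower. By an unadjusted p alone 37 members were at or below 0.05, and after Benjamini-Hochberg adjustment over all genes in limma 1 member, *Rps20*, kept an adjusted p of at most 0.05. Both SMF libraries exceeded both control libraries for 56 members, 63.6%, and lay below both for 4, 4.55%, against 37.4% and 17.4% of all genes. These shares were 48.6% and 11.5% for the other protein-coding genes. For those with a mean of at least 50 FPKM they were 45.8% and 28.5%.

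The members' median log2 fold change was 0.75, compared with 0.32 over all genes tested, 0.57 over 10216 other protein-coding genes and 0.31 over the 1004 of those with a mean of at least 50 FPKM. Since the whole distribution was shifted, the libraries were also brought to one median. The members' median was then 0.41 and that of all genes -0.02, with 10 members called higher and 2 lower, *Rpl6l* and *Rps29*, against 5.85% of all genes higher and 9.61% lower. Of the members below 0, 0 had an unadjusted limma p of at most 0.05 before that shift. Scaled to one sum over the other protein-coding genes, 12 members were called higher and the same 2 lower, against 6.96% of all genes higher and 8.28% lower. Of the 25 calls, 15 members were at least 2-fold higher in all 4 pairs of an SMF and a control library. The share of all genes that did so was not computed, so this count has no background. In single pairs, 27.3% to 54.5% of the members and 33.8% to 48% of all genes were at least 2-fold apart in either direction. Against control 1 the median member was 1.05 and 1.09 higher in the SMF libraries, and against control 2 it was 0.58 and 0.55 higher.

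**Figure D3:**
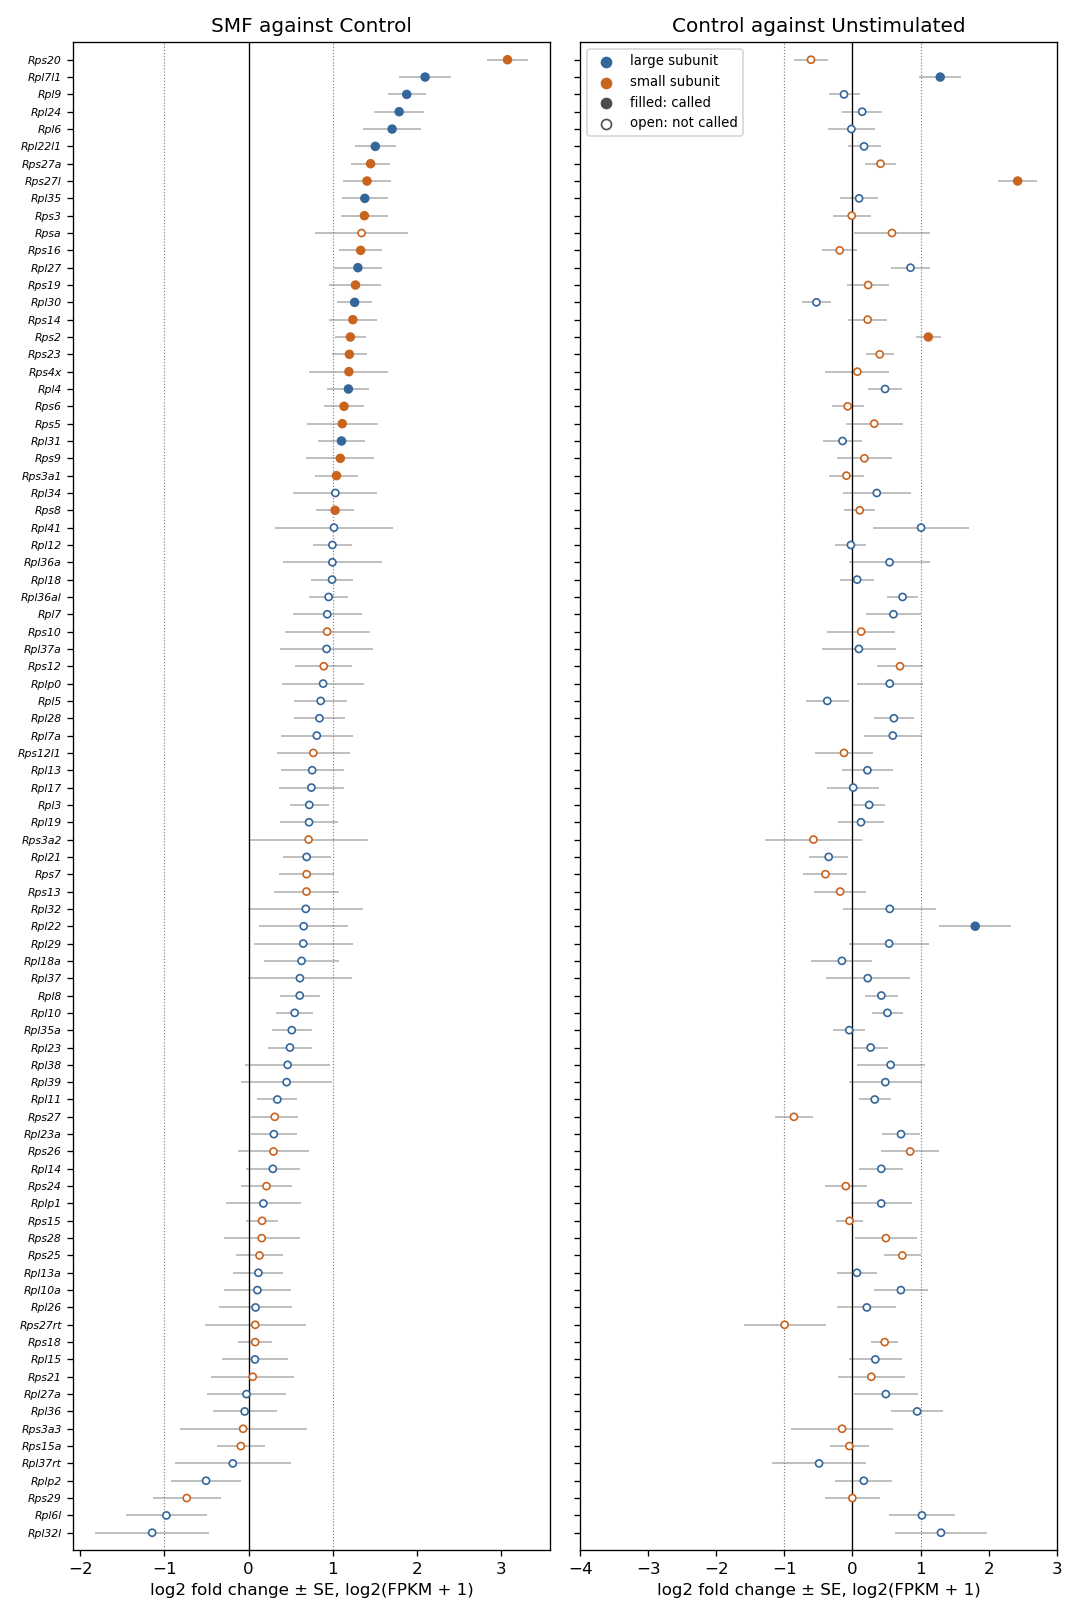
Log2 fold change of tested members with its standard error, SMF-treated against control cells on the left and control against unstimulated cells on the right, with subunits in colour, called genes filled and dotted lines at a 2-fold change. Members whose single results are reported here are drawn, and *Rps20* stands at 3.08 on the left and at -0.61 on the right.

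Both subunits leaned towards higher levels in SMF-treated cells. In the small subunit 15 of 36 members were called higher with a median log2 fold change of 0.90, and in the large subunit 10 of 52 with a median of 0.70. The difference between these shares was not tested, since members are not replicates.

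*Rps20*, a small subunit protein of the head, was the member furthest from the rest. It was singled out with these values known, and they are given as a description. Gene FPKM was 67.6 and 66.4 in unstimulated, 42.3 and 44.9 in control and 331 and 423 in SMF-treated cells. The SMF libraries stood apart from the other 4, and the control libraries were the lowest, at a log2 fold change of -0.61 against unstimulated cells that was not called. The log2 fold change against control was 3.08 (SE 0.25), with a Benjamini-Hochberg adjusted p of 0.0474 in limma, and over the other settings tried the adjusted p ran from 0.0368 to 0.465.

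Its size depended on which transcript the reads were given to. *Rps20* lies at chr4:3831334-3835665 on the minus strand (GRCm38) and has 3 annotated transcripts. A transcript of 582 bases, typed as retained intron in GENCODE, had 22.7 and 12.1 FPKM in unstimulated, 28.2 and 9.12 in control and 275 and 371 in SMF-treated cells. The coding transcript is annotated at 3706 bases because of a long last exon, and it had 22.2 and 54.3, 14.1 and 35.8, and 52.8 and 35.7 FPKM. The SMF libraries are thus set apart by the short transcript, while the coding one overlaps between groups.

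FPKM divides by length, so the same reads give more FPKM on the short transcript. Without that division, as bases of coverage scaled to library size, *Rps20* had 107 and 208 in unstimulated, 68.6 and 138 in control and 358 and 357 in SMF-treated cells, a log2 fold change of 1.87 with an adjusted p of 0.0919 (limma, Benjamini-Hochberg). With coding transcripts only the log2 fold change was 0.92 and the unadjusted limma p was 0.22. The inner exon of 74 bases, chr4:3834936-3835009, is shared in the same form by 2 transcripts. Its coverage per covered Mb of the library was 0.543 and 0.783 in unstimulated, 0.422 and 0.665 in control and 1.46 and 1.50 in SMF-treated cells. By this measure, which does not depend on the choice of transcript between those 2, SMF-treated cells were again above the other 4 libraries, by a smaller ratio than in gene FPKM. The first exon of the coding transcript, of 182 bases, did not follow. Its coverage was 0.034 and 0.251 in unstimulated, 0.111 and 0.305 in control and 0.050 and 0.072 in SMF-treated cells. In that exon both SMF libraries lay below both control libraries. The genes whose FPKM pattern was most like that of *Rps20* over the 6 libraries, by Pearson's correlation among members, were *Rpl9* (0.97), *Rpl30* (0.96), *Rpl22l1*, *Rpl18* and *Rpl12* (0.95 each).

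**Figure D4:**
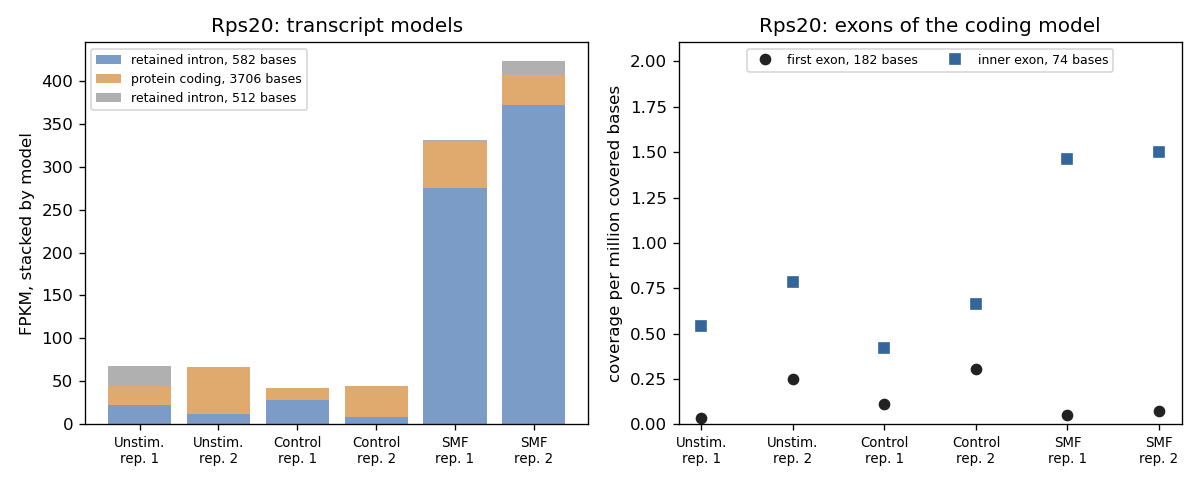
Stacked FPKM of the annotated transcripts (left) and coverage of single exons per covered Mb (right) of *Rps20* in the 6 libraries. The 582-base transcript stands at 275 and 371 FPKM in the SMF libraries and between 9.12 and 28.2 FPKM in the other 4.

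Several large subunit genes were called higher, though none of that subunit had a Benjamini-Hochberg adjusted p of at most 0.05 in limma. *Rpl9*, a protein near the base of the stalk, had 445 and 330 FPKM in unstimulated, 382 and 323 in control and 1341 and 1250 in SMF-treated cells, a log2 fold change of 1.88 (SE 0.23). *Rpl24*, which forms a bridge to the small subunit, had 172 and 292, 231 and 265, and 904 and 813 FPKM, a log2 fold change of 1.79 (SE 0.29). *Rpl6* had 113 and 147, 93.3 and 174, and 427 and 407 FPKM, a log2 fold change of 1.70 (SE 0.34). In all 3 genes the unstimulated and control libraries overlapped and the SMF libraries lay at least 2-fold above each control library. *Rpl30* and *Rpl4* were called with log2 fold changes of 1.26 and 1.19, and *Rpl27* with 1.3.

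Small subunit genes with calls include those that handle the mRNA. *Rps3*, at the mRNA entry, had 193 and 269 FPKM in control and 590 and 596 in SMF-treated cells, a log2 fold change of 1.37. *Rps2*, its neighbour there, had 432 and 434 FPKM in control and 1051 and 953 in SMF-treated cells, a log2 fold change of 1.21. *Rps27a*, which is made as a fusion with ubiquitin, had 201 and 186 FPKM in control and 584 and 479 in SMF-treated cells, a log2 fold change of 1.45. The groups did not overlap in any of the 3 genes. *Rps6*, the substrate of the S6 kinases, was called at 1.13, *Rps14* at 1.24, *Rps4x* at 1.19 and *Rps3a1* at 1.04. Of the 15 settings computed, *Rps6* was called in 12, *Rps14* in 13, *Rps3a1* in 11 and *Rps4x* in 5, so the call of *Rps4x* was lost in most of them. *Rpl24*, *Rpl6*, *Rpl7l1*, *Rpl9*, *Rps27l* and *Rps3* were called in each of the 15 settings, the leaving out of single libraries included, and *Rps20* in 14.

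Other members did not pass. *Rpsa*, the laminin receptor of the small subunit, had a log2 fold change of 1.34 but an unadjusted limma p of 0.0504, as its control libraries were at 135 and 360 FPKM. The stalk that recruits the elongation factors did not move as a unit: *Rplp0* was at 0.88, *Rplp1* at 0.17 and *Rplp2* at -0.51, and none of them was called. *Rpl11* and *Rpl5*, which bind Mdm2 together with 5S rRNA, were at 0.34 and 0.86 and were not called. *Rpl41* rested on 1 library, with 378 FPKM in SMF 1 and 1579 in SMF 2 against 407 and 359 in control cells. *Rps29* had 124 and 238 FPKM in control and 94.7 and 111 in SMF-treated cells, a log2 fold change of -0.74 that did not pass. In all, 25 members had a log2 fold change between -0.5 and 0.5, among them the most abundant, *Rpl13a* at 0.12 and *Rps18* at 0.08. The value of *Rps18* depended on the transcripts counted: its coding transcripts had 825 and 689 FPKM in control and 136 and 133 in SMF-treated cells, a log2 fold change of -2.48 that was called lower, whereas bases of coverage gave 0.34, not called.

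Stimulation without magnets was compared with fresh cells. Here 4 members were called higher, 4.55%, and 1 lower, 1.14%, whereas 12.3% of all genes were called higher and 12.6% lower. The groups did not overlap for 22 members that were higher and 5 that were lower, 25% and 5.68%, against 24.8% and 26.6% of all genes. The median log2 fold change of the members was 0.22, with -0.05 over all genes. The large subunit stood at 0.35 and the small subunit at 0.08. Over the 10216 other protein-coding genes the median was 0.01, with 13.6% called higher and 11.4% lower. The 1004 of those averaging 50 FPKM or more had a median of 0.31, above that of the members. Of these 1004, 23.6% were called higher and 10.2% lower. Their groups did not overlap for 44.3% that were higher and 26.3% that were lower. Within folder dates the members' median was 0.32 in June 2017 and 0.11 in November 2017. By date the large subunit had medians of 0.50 and 0.24 and the small subunit 0.22 and -0.01. At both dates 45 members were higher and 12 lower in control cells. These counts have no background, since the shares of all genes were not computed. The overall median turned to -0.10 without unstimulated 1 and to -0.02 without control 2, so its sign rests on single libraries. Without unstimulated 2 the members' median was 0.56.

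The 4 rises called in control against unstimulated cells were in *Rps27l*, *Rpl22*, *Rpl7l1* and *Rps2*, and each was at least 2-fold at both dates. *Rps2* went from 194 and 205 FPKM to 432 and 434, a log2 fold change of 1.11 (SE 0.19) with an adjusted p of 0.0246 (limma, Benjamini-Hochberg). *Rpl22*, whose loss blocks the development of alpha-beta T cells, went from 34.7 and 47.4 FPKM to 135 and 154, a log2 fold change of 1.80. Most of this *Rpl22* signal lay on a non-coding transcript of 581 bases, with 123 and 141 FPKM in control cells, 371 in SMF 1 and 0.002 in SMF 2. With coding transcripts only, *Rpl22* had 5.21 and 35.6 FPKM in unstimulated and 9.06 and 5.23 in control cells, and the log2 fold change turned to -0.93 and was not called. The 2 SMF libraries gave 401 and 129 FPKM for the gene, so its level in SMF-treated cells is not settled.

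SMF-treated cells against unstimulated cells combine stimulation, field and folder date. Here 38 members were called higher, 43.2%, and 1 lower, whereas 22.4% of all genes were called higher and 14.8% lower. Of the 10216 other protein-coding genes, 27.8% were called higher and 10.5% lower. The 1004 of those with a mean of at least 50 FPKM came closer to the members, with 38.7% higher and 15.1% lower. The members' median was 0.97 and that of all genes 0.27. After adjustment in limma 32 of the 88 members had a Benjamini-Hochberg adjusted p of at most 0.05. The same held for 3537 of all 14991 genes tested and for 489 of the 1004 protein-coding genes of at least 50 FPKM. The largest rises were those of *Rps27l* (3.83), *Rpl7l1* (3.39), *Rps20* (2.47), *Rpl22* (2.46) and *Rps2* (2.32). With coding transcripts only, *Rps20* was at 0.31 and *Rpl22* at 1.17, and neither was called. The count of members called higher was 22 without unstimulated 1, 24 without SMF 2 and 50 without unstimulated 2. These folds share their libraries with both other comparisons.

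Variant copies of ribosomal proteins were set beside their parents. *Rps27l*, a copy of *Rps27* and a known target of p53, had 33.3 and 49.4 FPKM in unstimulated, 205 and 241 in control and 678 and 515 in SMF-treated cells. The order unstimulated, control, SMF held without overlap, with log2 fold changes of 2.43 (adjusted p 0.0128 in limma, Benjamini-Hochberg) and 1.41. *Rps27* itself had 433 and 703, 319 and 288, and 348 and 407 FPKM. The ratio of copy to parent went from 0.077 and 0.070 to 0.642 and 0.838 and to 1.95 and 1.27, so in SMF-treated cells the copy had the higher level per length.

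*Rpl7l1*, a copy of *Rpl7*, kept the same order, at 7.23 and 8.54, 22.1 and 19.3, and 93.5 and 89.8 FPKM. Its log2 fold change was 1.29 in control against unstimulated cells and 2.10 (SE 0.30) in SMF-treated against control cells. *Rpl7* had 113 and 240, 200 and 315, and 499 and 463 FPKM, so the copy stayed at most 0.194 times its parent. *Rpl22l1*, the copy of *Rpl22*, had 83.1 and 77.0, 100 and 80.8, and 242 and 275 FPKM, a log2 fold change of 1.50 (SE 0.24) in SMF-treated against control cells and 0.17, not called, in control against unstimulated cells. *Rpl36al* stayed between 0.300 and 1.04 times *Rpl36a* with no order by group. *Rps27rt* had at most 32.8 FPKM. How reads shared by near-identical copies were divided is not known, so the ratios carry that uncertainty.

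**Figure D5:**
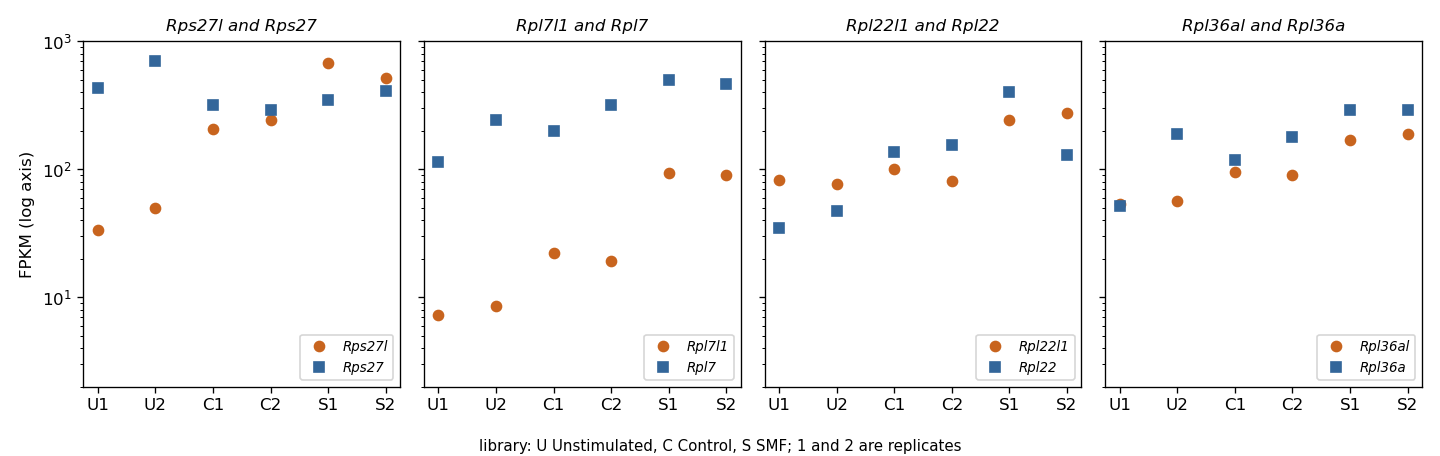
FPKM of variant copies and their parents in the 6 libraries on a log axis. *Rps27l* rises from 33.3 FPKM in unstimulated 1 to 678 FPKM in SMF 1, while *Rps27* stays between 288 and 703 FPKM.

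The pseudogene members were not called in the fit of all 6 libraries before scaling, though *Rpl6l* was called lower under both scalings. Of the 6 pseudogene members tested, 0 were called in SMF-treated against control cells by limma, with 0 at an unadjusted p of at most 0.05, and their median log2 fold change was -0.13. Among 99 tested pseudogenes with -ps in the name, 12 were called higher, 12.1%, and 3 lower with a median of 0.29, close to the 12.5% and 0.32 of all genes. The 78 mitochondrial ribosomal protein genes had 21 called higher and a median of 0.89. In control against unstimulated cells the mitochondrial set had 22 called higher, 28.2%, compared with 4 of the 88 cytosolic members.

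Non-coding transcript types took a sizeable part of the members' FPKM. Protein-coding transcripts held between 73.5% and 83.9% and retained introns between 9.77% and 17% per library. Of the 88 members, 78 had more than 1 annotated transcript, and in 38 of them the same transcript led in all 6 libraries. Counting coding transcripts only moved the SMF against control fold change by at least 1 on the log2 scale in 8 members.

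Gene structure was described beside the fold changes. Of the members, 30 hold a snoRNA on the same strand, all of them coding and tested. They had a median SMF against control log2 fold change of 0.78 with 9 called higher, and the 52 other coding members 0.81 with 16 called higher. Fold change and annotated transcript length had a Spearman correlation of 0.26 over the 82 coding members, 0.44 in the small and 0.19 in the large subunit, and 0.005 over 10197 other coding genes. The longer 41 members had 16 calls and a median of 0.88, and the shorter 41 had 9 calls and a median of 0.72. The 38 members with a pyrimidine run near the start had a median of 0.70 with 10 called higher, and the 26 without one 0.91 with 9 called higher.

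Genes of the wider ribosome pathway were read from lists of symbols. *Rack1*, which sits on the small subunit, was called higher after SMF treatment than in control cells at 1.09, whereas *Fau*, which encodes a ribosomal protein under another name, was at 0.31 and not called. Of 14 other mRNAs of the TOP class, 5 were called higher and 0 lower in SMF-treated against control cells, with a median of 0.90, beside 12.5% called higher and a median of 0.32 over all genes. These were the elongation factor genes *Eef1d* (1.48), *Eef1g* (1.22) and *Eef2* (1.01), the splicing factor *Hnrnpa1* (1.31) and the histone chaperone *Nap1l1* (1.11). In control against unstimulated cells 2 of the 14 were higher, a share close to the 12.3% of all genes, namely *Npm1* (1.56), a nucleolar protein, and *Nap1l1* (1.43).

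Of 13 tested chaperones and assembly factors of ribosomal proteins, 7 were called higher and 0 lower in SMF-treated against control cells, with a median of 1.37, beside the 12.5% and 0.32 of all genes. Among them, the assembly factor *Pno1* went from 9.40 and 15.6 to 56.1 and 53.0 FPKM, and *Tsr2*, the escort of *Rps26*, from 3.82 and 4.65 to 14.9 and 13.8 FPKM. In control against unstimulated cells 4 of the 13 were higher, beside 12.3% of all genes. Of 8 regulators of TOP mRNAs, 1 was called in SMF-treated against control cells, *Eif4ebp2*, the same share as over all genes, and 2 in control against unstimulated cells, *Eif4e* and *Eif4ebp1*. The regulators' median in SMF-treated against control cells was 1.11, with a range from -0.18 to 1.26, beside the 0.32 of all genes. For the Mdm2 pathway of free ribosomal proteins 4 genes were listed. *Ccng1* and *Cdkn1a*, targets of p53, were called higher in both comparisons, and *Trp53* in control against unstimulated cells alone. *Mdm2* itself was called in neither, at 0.68 in SMF-treated against control cells and 0.48 in control against unstimulated cells. These calls, 2 and 3 of the 4 genes, stand beside 12.5% and 12.3% of all genes. In SMF-treated against control cells, 19 of the 41 listed genes tested had an unadjusted limma p of at most 0.05, beside 3159 of all 14991 genes. Among the listed genes 0 had a Benjamini-Hochberg adjusted p of at most 0.05.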

How the data were processed

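RNA-Seq was analysed in 6 libraries, 2 each of unstimulated, control and SMF-treated CD8+ T cells, grouped by the labels. Per the labels, reads were trimmed with Trimmomatic 0.36 and aligned with HISAT2. Per the file headers, the authors quantified annotated GENCODE M19 transcripts on GRCm38 with StringTie 1.3.5 in stranded mode, and the series text says that samples were replaced after the first submission. The deposited values are FPKM and TPM, normalized by the authors' runs for library size and length, and coverage, the mean reads per base, which is not normalized. No read counts were given, so a 0 is only a listing at 0.

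Gene FPKM was summed over transcripts, and the 14991 of 54446 genes that averaged at least 1 FPKM were tested. The values log2(FPKM + 1) of all 3 groups entered 1 fit of limma 3.58.1 (R 4.3.3) with the variance trend, leaving 3 residual degrees of freedom. Calls required a 2-fold change and an unadjusted p not above 0.05, and p values were adjusted over all genes by Benjamini-Hochberg. The procedure was tested on simulated data. Gene and transcript types and snoRNAs came from GENCODE M21, and start windows from RefSeq. Exon coverage was divided by the library's covered Mb. Tables were made with Python 3.11.15, pandas 2.3.3 and numpy 2.4.6.

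The members and lists were chosen with earlier results of these data known. Members were named by a rule: *Rps20*, the stalk genes and *Rpsa*, *Rps6*, variant copies with their parents, the 5 largest and 5 smallest changes of each comparison and the 5 highest and 5 lowest means, 38 genes. *Rpl4*, *Rpl5*, *Rpl11*, *Rpl12*, *Rpl18*, *Rpl27*, *Rpl27a*, *Rpl29*, *Rpl30*, *Rpl32*, *Rpl37*, *Rpl41*, *Rps3*, *Rps10* and *Rps27a* were named after their values were seen. Results for some single genes, though counted in totals, are not reported here. *Rpl10l* and *Bxdc2*, as well as the listed markers of erythroid and NK cells and *Lyz2*, were not analysed here. The 3 value columns of another deposited table could be assigned to no sample and were left out. Alternatives were another pseudocount, no filter, 2 scalings, TPM, a replicate block, leaving out each library, and, added after seeing the data, coding transcripts only and bases of coverage scaled to library size, that is FPKM times transcript length in kb.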

Additional observations from a re-analysis of the deposited data

How the results depend on the processing

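The files hold no read counts, so depth limits could not be turned into intervals, and with 2 libraries a group single libraries carry much weight. For SMF-treated against control cells, the 10 members called higher after shifting the libraries to one median were all among the 25 of the report; 2 were then called lower, and the median was 0.41 (large subunit 0.36, small subunit 0.56). Scaling to other protein-coding genes gave 12 higher, 2 lower and a small subunit median of 0.62, and coding transcripts only, chosen after seeing the data, gave 19 higher, 17 of them among the 25, and 2 lower. Of all genes, 6.96% were called higher and 8.28% lower under that scaling, and 11.4% and 4.92% with coding transcripts only. For control against unstimulated cells, 2 members were called lower under that scaling and with TPM, and the small subunit median changed sign to -0.080, -0.065 and, with coding transcripts only, -0.0034. For SMF-treated against unstimulated cells the scaling gave 21 higher, 2 lower and a median of 0.53 (small subunit 0.57), and coding transcripts only gave 25 and 2. Of all genes, 16.3% were then called higher and 19.4% lower with the scaling, and 21.3% and 13% with coding transcripts only. Over protein-coding genes the mean shares were 8.79%, 8.45% and 11.6% in unstimulated, control and SMF-treated cells. The cause of these shifts was not tested.

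Leaving out each library in turn, members called higher in SMF-treated against control cells numbered 18 to 31, with 0 to 2 lower and a median of 0.59 to 1.04. The ranges in control against unstimulated cells were 3 to 12, 1 to 2 and -0.10 to 0.56, and in SMF-treated against unstimulated cells 22 to 50, 1 to 2 and 0.65 to 1.3. Large subunit medians ran from 0.55 to 0.98, from -0.0054 to 0.73 and from 0.64 to 1.33, and small subunit medians from 0.64 to 1.14, from -0.22 to 0.37 and from 0.65 to 1.21. The sign changed without unstimulated 1 (-0.10 over members, -0.0054 large, -0.22 small) and without control 2 (-0.02 over members, -0.065 small). With a replicate block the medians stayed at 0.75, 0.22 and 0.97, the calls were 27 and 0, 4 and 1, and 41 and 1, and the adjusted p of *Rps20* was 0.0969. Of all genes, 12.3%, 12.1% and 22.4% were then called higher and 5.82%, 12.3% and 14.8% lower. The labels give only a number, but unstimulated and control libraries of one number share a folder date, and their replicate deviations correlated at 0.64 over the members and 0.096 over all genes. With SMF the values over all genes were 0.030 (unstimulated) and 0.021 (control).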
